A study of Mus musculus with 16 samples.

Results

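The genes described here are 36 microglial and leukocyte genes among the 20730 genes measured in the mouse striatum. They were chosen by name, as known markers of microglia and as leukocyte receptor genes, and some were selected on the difference between hPMCA2w/b and control mice in precipitated RNA. That difference is therefore given below as a description: no p-value of a member is printed for it, and its counts support nothing. All 36 were listed in each of the 16 libraries and all passed the filter on low values in every comparison, but 5 of them (Cd22, Rasal3, Milr1, Csf2rb and Spi1) had enough reads in every PMCA IP library and not in every control IP library.

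The study used adult C57BL/6N mice in which a RiboTag virus placed Rpl22-HA, a tagged ribosomal protein, in striatal astrocytes. PMCA mice (n = 4) also received an AAV encoding hPMCA2w/b, a calcium pump that damps astrocyte calcium signals, and control mice (n = 4) received an AAV encoding a control protein. Each mouse gave 2 libraries, one of RNA precipitated through the HA tag (IP) and one of the cleared lysate (input), so the 4 groups are PMCA IP, control IP, PMCA input and control input. All 8 mice carried the RiboTag virus. The labels place tag and pump in astrocytes and name no promoter.

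Microglia are the resident macrophages of the brain. Their identity rests on the transcription factors PU.1, the product of Spi1, and Irf8, and their survival on the receptor Csf1r. They sense nucleotides through P2ry12 and P2ry13 and the neuronal chemokine fractalkine through Cx3cr1, signal through Trem2 and its adaptor Tyrobp, and make most of the complement protein C1q of the brain. In a precipitate of astrocyte ribosomes their RNA is not a target, and what remains of it is commonly called carry-over.

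Promoter sequences are shown because many myeloid genes are bound by PU.1 near their start sites. RefSeq (GRCm38.p6) gave 34 promoters, each running from 250 bases before to 50 after a start site, for 28 of the 36 genes, and Tmem119, Gpr34, Selplg, C1qa, Csf1r, Csf2rb, Tyrobp and Spi1 had no entry. The 8-letter PU.1-type motif GAGGAAGT, searched on both strands, was in 5 of the 34 promoters (14.7%) and in 3.20% of all 32851 promoters. The 7-letter AGGAAGT, which every 8-letter match also contains, was in 12 (35.3%) and in 9.35% of all. The 6-letter GGAAGT, contained in both, was in 15 (44.1%) and in 23.8% of all. These are matches of letters, not measured binding sites. The 8-letter matches fell in Inpp5d, Havcr2, C1qc, Ctss and Pram1. The 3 stretches with the 8-letter motif upstream of a start site, and 2 with the 7-letter motif, are printed 5′ to 3′ on the strand of the gene, with the motif, or its reverse complement, in capitals.
Inpp5d, chr1:87620266-87620311, plus strand: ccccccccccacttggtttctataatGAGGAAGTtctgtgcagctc
Havcr2, chr11:46454897-46454930, plus strand: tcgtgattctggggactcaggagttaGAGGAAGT
C1qc, chr4:136893076-136893135, minus strand: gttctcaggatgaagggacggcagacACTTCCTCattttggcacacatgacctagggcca
C1qb, chr4:136886221-136886279, minus strand: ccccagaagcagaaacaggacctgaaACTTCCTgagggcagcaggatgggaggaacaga
P2ry12, chr3:59263005-59263063, minus strand: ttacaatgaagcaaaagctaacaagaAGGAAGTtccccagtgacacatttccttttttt
The motif of Havcr2 ends at the base before the start site, that of Inpp5d 12 bases before it and that of C1qc 187 bases before it. A motif was thus present both in genes that were higher in PMCA IP, such as Havcr2, and in P2ry12, whose mean was lower there.

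The libraries held 48.1 to 55.1 M reads in PMCA IP, 46.8 to 58.5 M in control IP, 32.3 to 40.9 M in PMCA input and 33.1 to 40.2 M in control input. Reads of single members ran from 10 to 8658 in PMCA IP libraries and from 2 to 8951 in control IP libraries. Levels below are log2 CPM, the deposited unit, and a difference of 1 on that scale is a doubling. A pair of libraries stood apart for these genes, PMCA IP 4 and control input 4, and the results that turn on them are also given without them. The title and the source name of control 4 also disagree on its animal number. Xist, an X-linked noncoding RNA expressed in females, was at 4.98 to 9.11 in PMCA 3 and control 4 and at or below -0.09 in the other 6 mice. Ddx3y, a Y-linked gene, was at -3.72 to -1.64 in PMCA 3 and control 4 and at 6.35 to 7.25 in the other 6 mice. By these genes PMCA 3 and control 4 were female and the other 6 mice male. Rpl22 was lower in PMCA mice in both fractions, at 8.01 to 8.22 in PMCA IP against 9.62 to 9.92 in control IP, and at 6.59 to 6.79 in PMCA input against 7.48 to 7.77 in control input. Reads of native and tagged Rpl22 are not separated in the files. The part of these differences in the results was not tested.

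**Figure D1:**
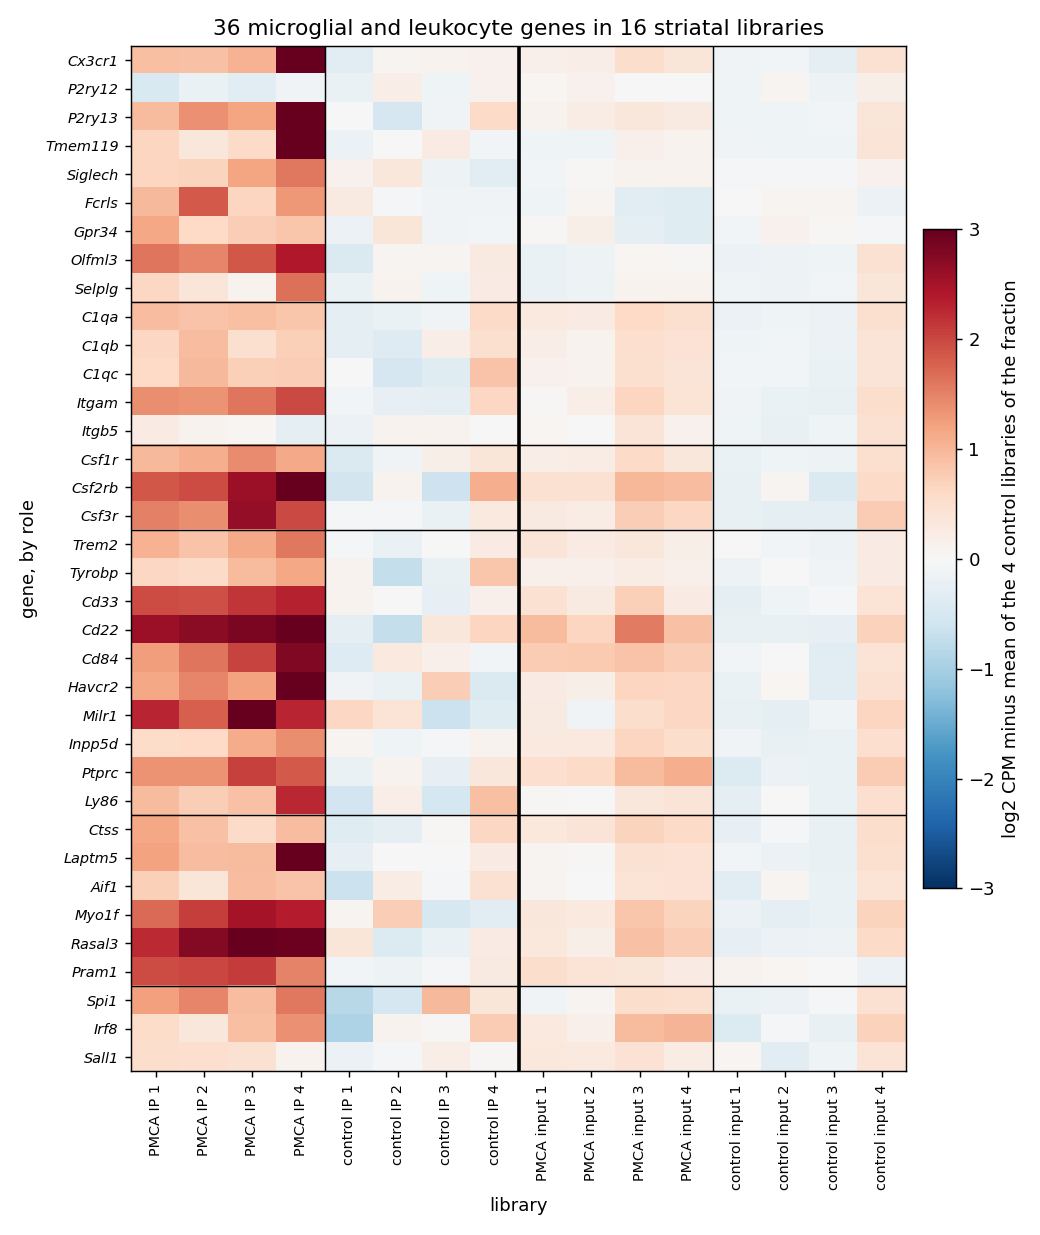
Heat map of the 36 genes (rows, grouped by role and split by lines) in the 16 libraries (columns), PMCA left of control within each fraction. Colour gives log2 CPM minus the mean of the 4 control libraries of the same fraction, and the scale stops at 3, which some genes, such as Cx3cr1, Tmem119 and Laptm5, exceed in PMCA IP 4. PMCA IP libraries are red in nearly all rows, and control input 4 is redder than the other control inputs.

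The level of these genes in IP against input was taken as a measure of carry-over. The ratio does not separate carry-over from RNA of the same genes made by astrocytes. In PMCA mice 33 of the 36 genes were lower in IP than in input and 2 were higher, and in control mice 34 were lower and 2 were higher (limma, adjusted p under 0.05). Of the 34, Cd22, Rasal3, Milr1, Csf2rb and Spi1 had enough reads in every library of control mice only in input, where they are high. Over all genes tested, 39.3% were lower and 37.4% higher in IP of PMCA mice, and 38.4% were lower and 39.1% higher in IP of control mice. The median difference of the 36 genes was -3.35 in PMCA mice and -4.95 in control mice, against -0.04 and 0.00 over all genes. Expressed as IP over input, the median gene was at 9.79% in PMCA mice and at 3.23% in control mice. In PMCA mice 11 of the 36 genes were under 5% of input, 21 between 5% and 25%, 2 between 25% and 100% and 2 above 100%, and in control mice these counts were 24, 8, 2 and 2. The IP libraries are among those used to choose the genes, and the PMCA and control IP libraries also enter the comparison between treatments.

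Among the 36 genes the strongest depletion in both treatments was that of Ctss, a lysosomal cysteine protease. Its IP minus input difference was -5.61, -5.97, -6.55 and -6.08 in the PMCA mice and -6.56, -6.69, -6.19 and -6.36 in the control mice. IP thus held 1.51% of the input level in PMCA mice and 1.14% in control mice, and the ranges of the 4 mice overlapped. Tyrobp, the adaptor of Trem2, stood at 1.89% of input in PMCA mice and 1.19% in control mice. C1qb, a chain of complement C1q, stood at 1.63% in PMCA mice and 1.26% in control mice. Csf1r, the receptor for the microglial growth factors, stood at 3.95% in PMCA mice and 2.22% in control mice, and the 4 differences of PMCA mice (-4.70 to -4.61) all lay above those of control mice (-5.74 to -5.18).

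Other genes, of the same and of other roles, were less depleted. Olfml3, a secreted olfactomedin-family protein typical of microglia, stood at 22.2% of input in PMCA mice and at 5.95% in control mice. Cd33, a sialic acid-binding inhibitory receptor, stood at 20.4% in PMCA mice and at 6.42% in control mice. Rasal3, a Ras GTPase-activating protein of blood cells, stood at 14.5% in PMCA mice and at 3.12% in control mice. Milr1, an inhibitory receptor known from mast cells, stood at 18.2% in PMCA mice and at 4.18% in control mice, and Csf3r, the G-CSF receptor, at 14.9% in PMCA mice and 5.60% in control mice. In each of these 5 genes the 4 PMCA mice all lay above the 4 control mice. Milr1 had only 5, 4, 2 and 2 reads in the control IP libraries, so its percentage there is imprecise. Irf8, a transcription factor of the myeloid lineage, stayed at 54.7% of input in PMCA mice and at 48.2% in control mice, and its difference passed the test in both (adjusted p = 0.00835 in PMCA mice and 0.0119 in control mice, limma).

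Pram1, an adaptor first known from myeloid cells, was the gene that did not pass in PMCA mice. Its IP minus input difference was -0.20, -0.02, 0.12 and -0.37 in PMCA mice (mean -0.12, adjusted p = 0.512, limma) and -1.80, -1.82, -1.66 and -1.17 in control mice (mean -1.61, adjusted p = 1.18e-05). Its level in IP was close to that in input in every PMCA mouse and lower than input in every control mouse. When libraries were scaled by total reads, which moved the median of all genes in PMCA mice to -0.35 and the split of calls over all genes to 4294 higher and 8898 lower (6121 and 6430 with the authors' scaling), Pram1 passed as lower in IP of PMCA mice as well.

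Against their label, 2 members were higher in IP than in input. Sall1, a zinc-finger transcription factor known for microglial identity, was higher in IP by 1.16 in PMCA mice (SE 0.09, adjusted p = 9.69e-07) and by 1.08 in control mice (SE 0.14, adjusted p = 4.28e-05, limma). Itgb5, an integrin beta chain, was higher in IP by 0.91 in PMCA mice (SE 0.11, adjusted p = 2.95e-05) and by 1.02 in control mice (SE 0.14, adjusted p = 3.93e-05). Their RNA in these precipitates followed the direction of the 12 astrocyte markers, all of which were higher in IP in both treatments (median 3.28 in PMCA mice and 3.21 in control mice). The data thus go against the label for these 2 genes. Without them, the summed level of the other 34 genes was 114 to 239 CPM in PMCA IP (median 128), 52.6 to 92.5 CPM in control IP (median 67.6), 2033 to 2558 CPM in PMCA input (median 2217) and 1576 to 2439 CPM in control input (median 1630).

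**Figure D2:**
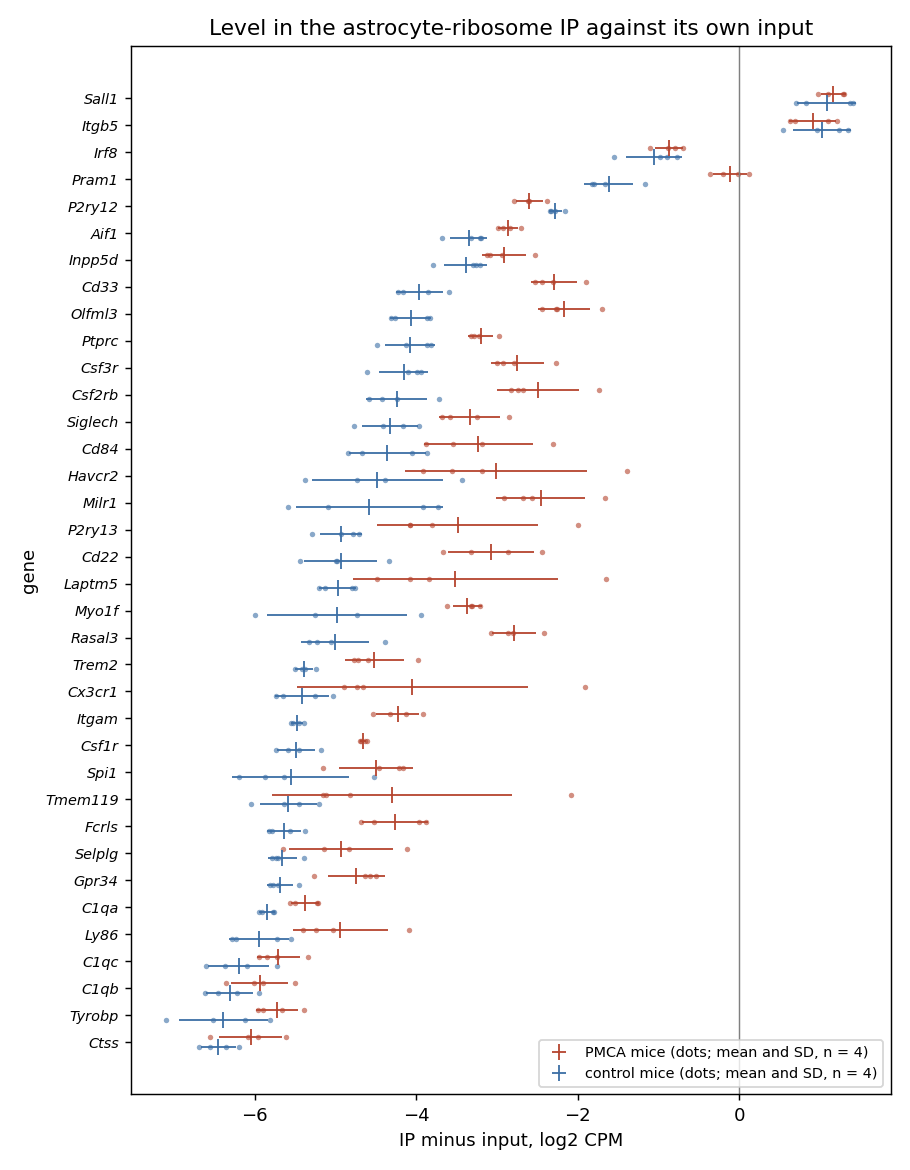
IP minus input of each mouse (dots, log2 CPM) for the 36 genes, with the mean and SD (bars, n = 4 mice), PMCA above control in each row. Genes are ordered by the mean of the control mice. Sall1 and Itgb5 lie right of 0, Ctss lies farthest left, and Olfml3, Cd33 and Rasal3 show PMCA dots right of all control dots.

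In PMCA IP against control IP, the contrast used in the choice of genes, 35 of the 36 genes had a higher mean in PMCA IP, with a median difference of 1.24 against -0.01 over all genes. Of the 36, 24 passed limma's threshold as higher and 0 as lower, where 9.54% of all genes tested passed as higher and 10.1% as lower. In 24 of the 36 genes every PMCA IP lay above every control IP. With control IP 4 left aside this held for 31 of the 36 genes (86.1%), against 15.7% of the 16306 genes tested in input. All these counts describe the choice and support nothing. In bulk samples, more cells of a type and more RNA per cell cannot be told apart, and in a precipitate neither can be told apart from more carry-over.

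Among microglial identity genes and receptors the differences ran from -0.27 to 1.84 and were led by Olfml3. Olfml3 lay at 3.09, 2.95, 3.35 and 3.89 in PMCA IP and at 1.06, 1.57, 1.56 and 1.75 in control IP, a difference of 1.84 with no overlap. Fcrls, an Fc receptor-like protein of mouse microglia, lay at -0.61, 0.24, -0.96 and -0.29 in PMCA IP and at -1.32, -1.64, -1.70 and -1.69 in control IP, again with no overlap. Siglech, a sialic acid-binding lectin, had a difference of 1.02, and Gpr34, a lysophosphatidylserine receptor, one of 0.83, both without overlap.

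P2ry12, the receptor by which microglial processes sense ADP, was the exception. It lay at 2.93, 3.19, 3.05 and 3.27 in PMCA IP and at 3.19, 3.58, 3.24 and 3.52 in control IP, a difference of -0.27 with overlapping groups. Its neighbour P2ry13, a related ADP receptor, lay at 0.29, 0.70, 0.52 and 2.54 in PMCA IP and at -0.65, -1.17, -0.76 and -0.09 in control IP, a difference of 1.68 without overlap. Both genes lie inside the span of Med12l, a Mediator subunit gene, in the RefSeq annotation (P2ry12 at chr3:59216271-59262985, P2ry13 at chr3:59207892-59210882). Gpr34 likewise lies inside the span of Cask, and Milr1 and Rasal3 partly overlap Polg2 and A530088E08Rik. Strand use in counting is not stated, so the values of all these genes are uncertain to that extent. Cask averaged 7.26 in PMCA IP and 7.43 in control IP, Polg2 1.21 in both, and A530088E08Rik -3.36 in PMCA IP and -6.40 in control IP. Med12l averaged 5.69 ± 0.06 in PMCA IP and 5.58 ± 0.20 in control IP (SD, n = 4 each). P2ry12 stood at 16.5% of input in PMCA mice and at 20.6% in control mice, and P2ry13 at 8.91% in PMCA mice and 3.28% in control mice.

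The 3 chains of C1q, which tags synapses and debris for removal, had differences of 0.88 (C1qa), 0.68 (C1qb) and 0.76 (C1qc). C1qa lay at 2.65, 2.59, 2.63 and 2.58 in PMCA IP and at 1.46, 1.55, 1.64 and 2.31 in control IP. Every PMCA value of C1qa was above every control value, and control IP 4 came closest. Itgam, the alpha chain of complement receptor 3, lay at 1.66, 1.62, 1.86 and 2.24 in PMCA IP and at 0.18, 0.02, -0.02 and 0.89 in control IP, a difference of 1.58. Itgb5 differed by 0.03 with overlapping groups.

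All 3 receptors for colony-stimulating factors were higher in every PMCA IP than in every control IP. Csf1r lay at 2.85, 2.97, 3.29 and 3.01 in PMCA IP and at 1.43, 1.77, 2.03 and 2.24 in control IP, a difference of 1.16. Csf2rb, the shared beta chain of the receptors for GM-CSF, interleukin-3 and interleukin-5, lay at 0.12, 0.22, 0.82 and 1.69 in PMCA IP and at -2.30, -1.64, -2.36 and -0.65 in control IP, a difference of 2.45. Csf2rb is near-identical to its neighbour Csf2rb2, so its value is uncertain to that extent. Csf3r differed by 1.88.

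Among immunoreceptors, adaptors and phosphatases all 10 genes had a higher mean in PMCA IP, with a median difference of 1.77. Cd22, a sialic acid-binding inhibitory receptor of B cells and microglia, lay at -1.12, -0.96, -0.85 and -0.29 in PMCA IP and at -3.95, -4.39, -3.32 and -3.03 in control IP, a difference of 2.87. Cd33 lay at 0.74, 0.70, 0.91 and 1.09 in PMCA IP and at -1.12, -1.23, -1.46 and -1.08 in control IP. The groups of both genes did not overlap, and the 4 values of Cd33 lay close together within either treatment. Cd22 had only 3, 2, 5 and 5 reads in the control IP libraries, so its difference is imprecise. Cd84, a self-ligating SLAM-family receptor, lay at 0.23, 0.59, 1.02 and 1.77 in PMCA IP and at -1.39, -0.70, -0.86 and -1.08 in control IP. Ptprc, the leukocyte phosphatase CD45, had a difference of 1.65 and Milr1 one of 2.46, both without overlap. Inpp5d, the lipid phosphatase SHIP1, had a smaller one of 0.91, also without overlap. Trem2 differed by 1.16 without overlap, and Tyrobp by 0.83 with overlap.

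Of the intracellular proteins, Rasal3 lay at -0.06, 0.45, 0.71 and 0.63 in PMCA IP and at -1.93, -2.71, -2.51 and -2.06 in control IP, a difference of 2.74. Myo1f, an unconventional myosin of leukocytes, differed by 2.15 and Pram1 by 1.88, both without overlap. Ctss lay at 3.12, 2.83, 2.54 and 2.89 in PMCA IP and at 1.60, 1.67, 1.99 and 2.59 in control IP, so its groups overlapped at control IP 4. Aif1, the actin-binding protein known as IBA1, differed by 0.71 with overlap. Of the transcription factors, Spi1 differed by 1.30, Irf8 by 0.79 and Sall1 by 0.39, all with overlapping groups. Irf8 lay at 4.64, 4.42, 4.99 and 5.46 in PMCA IP and at 3.17, 4.20, 4.14 and 4.86 in control IP, where control IP 4 was above 2 of the PMCA libraries.

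PMCA IP 4 carried part of these differences. In 7 of the 36 genes it lay at least 1 log2 unit above each of the other 3 PMCA IP libraries (Cx3cr1, Tmem119, Laptm5, P2ry13, Havcr2, Ly86 and Selplg, named after their values were seen). Over the 15748 genes tested this held for 211 genes (1.34%) in PMCA IP 4, and for 9 to 66 genes in the other 15 libraries against the rest of their groups. Cx3cr1 lay at 2.24, 2.22, 2.36 and 5.19 in PMCA IP and at 0.999, 1.40, 1.44 and 1.47 in control IP. Tmem119, a membrane protein specific to microglia in brain, lay at 0.85, 0.55, 0.80 and 3.82 in PMCA IP and at 0.05, 0.21, 0.47 and 0.14 in control IP. Laptm5, a lysosomal membrane protein of blood cells, lay at 2.10, 1.83, 1.85 and 4.66 in PMCA IP and at 0.65, 0.89, 0.90 and 1.16 in control IP. In all 3 genes the other PMCA IP libraries also lay above all control IP libraries.

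The same did not hold for the input of that mouse. PMCA input 4 was below the highest of the other PMCA inputs by 0.16 in Cx3cr1, 0.05 in Tmem119 and 0.02 in Laptm5. Csf1r and Ctss, which are microglial too, were within the range of the other PMCA IP libraries in PMCA IP 4, and C1qa was slightly below them. Without PMCA IP 4 the difference between PMCA IP and control IP was 0.94 in Cx3cr1 (1.67 with it), 0.52 in Tmem119 (1.29 with it), 1.03 in Laptm5 (1.71 with it) and 1.17 in P2ry13 (1.68 with it). It was 1.28 in Havcr2 (1.89 with it), 0.85 in Ly86 (1.20 with it) and 0.36 in Selplg (0.69 with it). Some genes of other cell types were likewise at least 1 log2 unit higher in PMCA IP 4 than in each other PMCA IP, among them Cd4 and Cd8a of T cells, Cd79b of B cells, and Cldn5 and Pecam1 of endothelial cells. Their part in the result was not tested.

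**Figure D3:**
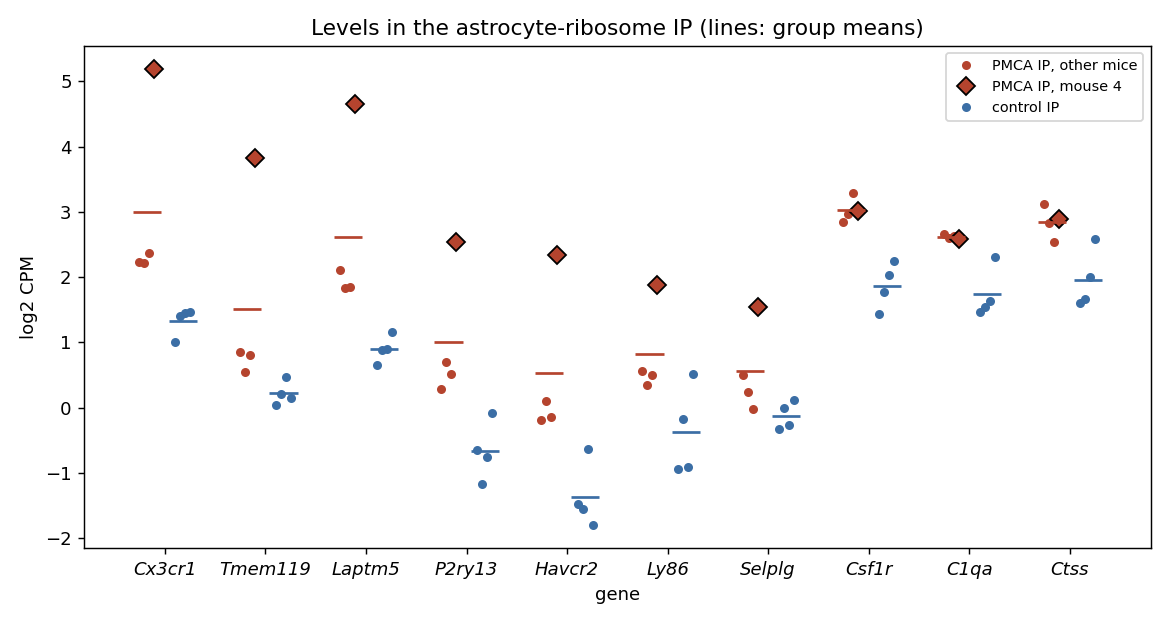
Level in IP libraries (log2 CPM) of 10 genes, PMCA left of control, with a dot for each mouse, a diamond for PMCA IP 4 and a line for the mean of 4. The diamond stands apart in the first 7 genes, from Cx3cr1 at 5.19 to Selplg at 1.53, and lies beside the other PMCA dots in Csf1r, C1qa and Ctss.

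RNA of some other compartments also differed between the IP groups. These marker lists were drawn up with earlier results of these data known, so their counts are a description. Over all genes tested, 9.54% passed as higher in PMCA IP and 10.1% as lower. The 6 nuclear noncoding RNAs were all higher in PMCA IP by the test (median 1.06). Their summed level was 3228 to 5685 CPM in PMCA IP and 1511 to 2257 CPM in control IP. Of 7 endothelial markers 6 were tested and 4 were higher (median 0.72), with a summed level of 9.65 to 14.7 CPM in PMCA IP and 6.20 to 7.11 CPM in control IP. Of 8 T and NK cell markers 5 were tested and 2 were higher (Lck and Cd8a), with a summed level of 21.8 to 70.2 CPM in PMCA IP and 16.0 to 28.8 CPM in control IP. The 70.2 CPM was that of PMCA IP 4, and PMCA IP 1, 2 and 3 lay at 21.8, 24.4 and 22.7 CPM, within the range of control IP. Without PMCA IP 4, Lck (0.55, adjusted p = 0.0411) and Cd8a (1.99, adjusted p = 0.0425, limma) still passed. B cell markers summed to 0.324 to 0.875 CPM in PMCA IP and to 0.0234 to 0.168 CPM in control IP, and none was tested. Markers of neutrophils and monocytes summed to 1.02 to 1.40 CPM in PMCA IP and to 0.547 to 0.797 CPM in control IP, and Ccr2 was the gene that passed (2.15, adjusted p = 0.0447, limma, and 1.73, adjusted p = 0.0918, without PMCA IP 4). Markers of border macrophages summed to 6.64 to 9.71 CPM in PMCA IP and to 5.39 to 8.15 CPM in control IP, with Pf4 at 0 reads in all 8 IP libraries. Of 8 neuronal markers 0 were higher and 1 was lower (Snap25, -0.51), and 4 of 12 astrocyte markers were higher. Of 6 oligodendrocyte markers 0 were higher and 0 lower (median 0.07). Their summed level was 5565 to 6552 CPM in PMCA IP and 4668 to 10173 CPM in control IP. The part of any of these in the result for microglial genes was not tested.

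Microglial and myeloid genes outside the 36 were compared in the same IP libraries. Of 33 further microglial and macrophage genes 9 were higher in PMCA IP and 0 lower (limma, median difference 0.51). Of 16 Fc receptors and signalling proteins downstream of immunoreceptors 8 were higher and 0 lower (median 1.26). Over all genes tested, 9.54% passed as higher and 10.1% as lower. Both lists were likewise drawn up with earlier results of these data known. Their counts and p-values in IP are thus a description and no independent support for the 36 genes. The largest differences among the macrophage genes that passed were those of Cd37, a tetraspanin (1.98, SE 0.40, adjusted p = 0.00939), Runx1, a transcription factor of blood cells (1.80, SE 0.31, adjusted p = 0.0053), Cybb, the NADPH oxidase subunit (1.72, adjusted p = 0.0449), Itgb2, the partner of Itgam (1.58, adjusted p = 0.0389), and Dock2, a Rac activator (1.58, adjusted p = 0.00344). Without PMCA IP 4, Cybb differed by 1.09 (adjusted p = 0.0122) and Itgb2 no longer passed (1.49, adjusted p = 0.0664).

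Of the signalling genes that passed, Btk, a kinase of B cells and myeloid cells (1.79, SE 0.40, adjusted p = 0.0145), Pik3ap1, a phosphoinositide 3-kinase adaptor (1.73, adjusted p = 0.0345), Fcgr2b, the inhibitory Fc receptor (1.72, SE 0.26, adjusted p = 0.00386), Fcgr3, an activating Fc receptor (1.57, adjusted p = 0.00689), and Vav1, a signalling protein of blood cells (1.35, adjusted p = 0.0189), differed most by limma. Fcgr2b lay at 4.14, 3.84, 4.59 and 5.05 in PMCA IP and at 2.14, 2.88, 2.66 and 3.07 in control IP. All 4 PMCA values of Fcgr2b were above all control values. Pik3ap1 differed by 1.16 without PMCA IP 4 (adjusted p = 0.0122, limma). The 17 calls of both lists became 6 with the animal number set of the source names as a block, 10 without PMCA IP 3, 11 without control IP 2 and 11 without control IP 3.

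The comparison of PMCA input with control input asked whether the whole lysate differed in microglial RNA. The choice of genes did not use these libraries. They come from the same mice as the IP libraries, however, and each input correlated best with its own IP. The comparison is thus not independent of the choice. Of the 36 genes 1, Cd84, was higher in PMCA input and 0 were lower, where 0.362% of all genes tested passed as higher and 0.0797% as lower. The mean was higher in PMCA input in 32 of the 36 genes, with a median difference of 0.31 against -0.01 over all genes. At an unadjusted p under 0.05, 21 of the 36 genes were higher and 0 lower, against 19.3% of all genes in either direction.

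Cd84 lay at 4.12, 4.13, 4.21 and 4.08 in PMCA input and at 3.28, 3.35, 3.01 and 3.76 in control input, a difference of 0.79 (SE 0.13, adjusted p = 0.0403, limma). All 4 PMCA inputs were above all control inputs, and control input 4 came closest. Pram1 also had no overlap, with 1.43, 1.30, 1.26 and 1.15 in PMCA input and 1.01, 0.96, 0.90 and 0.72 in control input (difference 0.39, SE 0.14, adjusted p = 0.175). Cd22 had the largest difference, 1.01 (SE 0.24, adjusted p = 0.087), with 2.21, 1.90, 2.82 and 2.15 in PMCA input and 1.03, 1.04, 1.02 and 1.96 in control input. Its control inputs 1 to 3 were nearly equal, and control input 4 lay above PMCA input 2.

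A like arrangement, with control inputs 1 to 3 low and control input 4 among the PMCA values, was seen in Cx3cr1, C1qa and Csf1r. Cx3cr1 lay at 6.89, 6.95, 7.26 and 7.10 in PMCA input and at 6.64, 6.66, 6.48 and 7.21 in control input (difference 0.31, SE 0.13, adjusted p = 0.246). C1qa lay at 7.88, 7.83, 8.20 and 8.07 in PMCA input and at 7.41, 7.46, 7.41 and 8.07 in control input (0.41, SE 0.14, adjusted p = 0.158). Csf1r lay at 7.55, 7.58, 7.93 and 7.70 in PMCA input and at 7.17, 7.22, 7.22 and 7.83 in control input (0.33, SE 0.13, adjusted p = 0.221). In each of these 3 genes control inputs 1 to 3 were below every PMCA input, and control input 4 was not.

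Csf2rb differed by 0.71 (SE 0.20, adjusted p = 0.122), Ptprc by 0.77 (SE 0.22, adjusted p = 0.119) and Irf8 by 0.60 (SE 0.24, adjusted p = 0.214). Ctss lay at 8.73, 8.80, 9.09 and 8.98 in PMCA input and at 8.15, 8.36, 8.19 and 8.94 in control input (0.49, SE 0.15, adjusted p = 0.132), and Myo1f differed by 0.54 (adjusted p = 0.182). Ly86, a secreted partner of the Toll-like receptor relative RP105, differed by 0.19 (SE 0.15, adjusted p = 0.503), Trem2 by 0.29 (adjusted p = 0.122) and Spi1 by 0.24 (adjusted p = 0.449). None of these passed the test. The remaining genes with a higher mean in PMCA input, P2ry12, P2ry13, C1qb, C1qc, Itgam, Itgb5, Csf3r, Tyrobp, Cd33, Havcr2, Milr1, Inpp5d, Laptm5, Aif1, Rasal3 and Sall1, differed by 0.05 (P2ry12) to 0.53 (Rasal3), with adjusted p-values of 0.154 (Inpp5d) to 0.735 (P2ry12, limma).

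The identity genes divided. Of the 9 genes of this group 5 had a higher mean in PMCA input and 4 a lower one (Fcrls, Gpr34, Olfml3 and Selplg), with a median of 0.00, whereas the other 27 genes all had a higher mean in PMCA input. Fcrls lay at 3.92, 4.12, 3.73 and 3.68 in PMCA input and at 4.06, 4.14, 4.12 and 3.87 in control input (-0.19, SE 0.10, adjusted p = 0.338). Tmem119 differed by 0.00 (SE 0.11, adjusted p = 0.997) and Siglech, the lectin, by 0.04 (SE 0.06, adjusted p = 0.799). The difference between the 9 identity genes and the others was not tested.

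Control input 4, from the control mouse with high Xist and low Ddx3y, decided how many genes passed. It lay above each other control input in 33 of the 36 genes, against 33.7% of all genes tested. It lay above every PMCA input in 12 of the 36 genes and in 4334 of all 16306 genes tested, which are shares of like size. Without it, 25 of the 36 genes were higher in PMCA input and 0 lower, where 5.69% of all genes passed as higher. The 11 that did not pass then were P2ry12, Tmem119, Siglech, Fcrls, Gpr34, Olfml3, Selplg, Milr1, Aif1, Pram1 and Spi1, of which the first 7 are identity genes. The differences of the 25 then ran from 0.25 (Tyrobp, SE 0.05, adjusted p = 0.0181) to 1.24 (Cd22, SE 0.19, adjusted p = 0.00385, limma). Cd84 differed by 0.92 (SE 0.09, adjusted p = 0.000283), Ptprc by 1.03 (SE 0.13, adjusted p = 0.0011), Ctss by 0.67 (SE 0.08, adjusted p = 0.000916) and C1qa by 0.57 (SE 0.07, adjusted p = 0.00164). Of the identity genes Cx3cr1 (0.46, SE 0.08, adjusted p = 0.0073) and P2ry13 (0.35, SE 0.07, adjusted p = 0.0121) passed, while Tmem119 differed by 0.13 (SE 0.07, adjusted p = 0.281) and Fcrls by -0.24 (SE 0.10, adjusted p = 0.146). When any other input library was left out instead, 0 of the 36 passed. Over all genes, 1 to 28 passed as higher in those fits, and 59 did with all libraries. All 4 PMCA inputs lay above control inputs 1 to 3 in 27 of the 36 genes (75.0%), against 11.9% of all genes.

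Animal numbers in the titles fall in a low set (PMCA 1 and 2, control 1 to 3) and a high set (PMCA 3 and 4, control 4), and these values within sets were added after the data were seen. In the low set 33 of the 36 genes had a higher mean in PMCA input, against 47.8% of all genes, with a median difference of 0.31. In the high set, which holds 1 control mouse, 18 of the 36 did, with a median of -0.00. That is near the share over all genes, 46.7%. Cd84 was higher in PMCA input by 0.92 in the low set and by 0.38 in the high set, and Ptprc by 0.78 in the low set and 0.25 in the high set. Csf1r had a difference of 0.36 in the low set and -0.02 in the high set. With the set of the titles as a block 12 genes passed as higher (C1qa, C1qb, C1qc, Cd22, Cd84, Csf2rb, Ctss, Inpp5d, Irf8, Myo1f, Ptprc and Rasal3), where 3.8% of all genes did. With the set of the source names, which places control 4 in the low set, 0 passed. In that fit 25 of all genes tested passed as higher. In IP, where the contrast was used in the choice of genes, the mean was higher in PMCA mice in 35 of 36 genes in the low set. It was higher in 33 of 36 in the high set, and the medians were 1.16 and 1.15. Over all genes the shares were 49.7% and 48.9%. These IP counts describe the choice and support nothing.

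**Figure D4:**
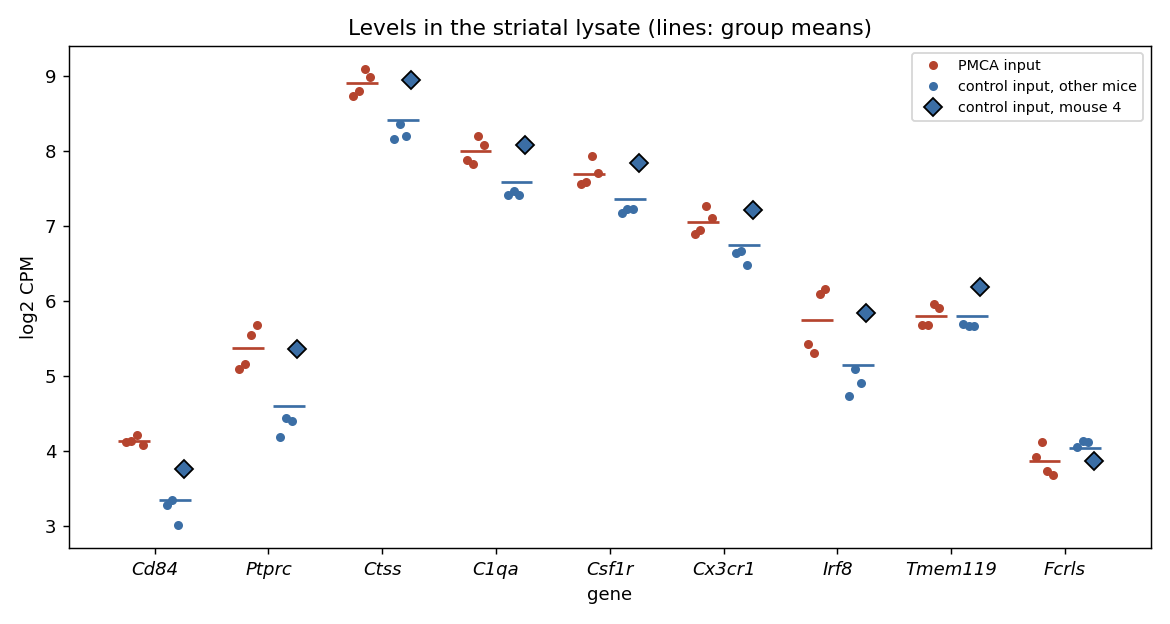
Level in input libraries (log2 CPM) of 9 genes, PMCA left of control, with a dot for each mouse, a diamond for control input 4 and a line for the mean of 4. The diamond lies at the height of the PMCA dots in Ptprc, Ctss, C1qa, Csf1r, Cx3cr1 and Irf8, below them in Cd84 and above them in Tmem119.

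Genes outside the 36 showed the same dependence on this library. Of the 33 further microglial genes 0 were higher or lower in PMCA input, and of the 16 signalling genes 1 was higher (Fcgr2b, difference 1.08, SE 0.18, adjusted p = 0.0403, limma). Their medians were 0.30 and 0.44. Fcgr2b lay at 4.23, 4.25, 4.51 and 4.33 in PMCA input and at 3.06, 3.11, 2.89 and 3.92 in control input. All PMCA inputs of Fcgr2b were above all control inputs. The 1 call of both lists became 30 without control input 4, 17 with the set of the titles as a block, 0 with that of the source names and 0 when any other library was left out. Over all genes, 935, 620, 25 and 1 to 28 passed as higher in these fits, in the same order. Of 6 oligodendrocyte markers 0 were called in input (median -0.15), and 2 of 12 astrocyte markers, the glutamate transporters Slc1a2 (0.31, adjusted p = 0.0485) and Slc1a3 (0.26, adjusted p = 0.0344), were higher. Lymphocyte markers also had higher means in PMCA input, and none passed the test. All 8 T and NK cell markers had a higher mean in PMCA input (median 1.01), and their summed level was 77.1 to 96.1 CPM in PMCA input and 67.0 to 77.1 CPM in control input. Of 5 B cell markers 4 were tested, and all 4 had a higher mean in PMCA input (median 0.75), with a summed level of 7.17 to 8.86 CPM in PMCA input and 3.11 to 6.90 CPM in control input. Their part in the differences of genes such as Ptprc and Cd22, which lymphocytes also express, was not tested.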

How the data were processed

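Per the labels' protocols, stranded TruSeq libraries of ribosomal RNA-depleted total RNA were read on an Illumina HiSeq4000. STAR, HTSeq, edgeR, limma and build mm10 are named in the submitters' processing notes. Their versions, settings and strand use in counting are not stated. The authors deposited log2 CPM for 20730 genes in each of 16 libraries. Undoing the log2 scale and a mean prior count of 0.25 gave whole reads (within 0.001) for 100% of the values, which gave the depths.

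Comparisons were fitted with limma 3.58.1 (R 4.3.3) on the deposited log2 CPM of all genes, with a mean-variance trend, two-sided, and Benjamini-Hochberg adjustment over all genes tested (threshold 0.05). Genes were kept when 4 or more libraries had at least 10 reads (scaled to the median library) and all together at least 15. The fit was tested on simulated data. Where n is 4 per group, adjusted p-values are those of limma. Each mouse is a separate animal per the labels, and replicates differed by more than sampling noise in all 24 pairs.

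Input and IP of 1 mouse are paired by the labels. Over 16673 genes the deviations of own pairs correlated with r of 0.11 to 0.33 and those of other mice with -0.20 to 0.08, and all 8 inputs correlated best with their own IP.

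The members and the other gene lists were chosen with earlier results of these data known. Values in every library are given for the member of each role with the highest mean input level, those with the largest treatment differences and those that go against their role. Members outside that rule were named after their values were seen. From other lists up to 5 genes that passed are named per comparison. Alternatives were total-read scaling, no filter, a prior count of 2, limma voom on the recovered reads (the count test used here), animal number sets or the mouse as a block, and each library left out. Promoters and positions are RefSeq's for GRCm38.p6.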

Additional observations from a re-analysis of the deposited data

Results flagged for a closer look

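Of 144 groups of 4 libraries (36 genes in 4 groups), 26 held a highest or lowest library whose gap to the nearest other was too large a share of the group's range by Dixon's 95% criterion. Chance gives about 1 in 20 where groups are independent. The 36 genes share the same libraries, so their groups are not independent and that share cannot be set against the 26. Control input 4 was the library in 17 of them, always as the highest, at 4.62 log2 CPM in P2ry13, 6.19 in Tmem119, 7.83 in Csf1r, 4.48 in Csf3r, 8.07 in C1qa, 7.50 in C1qb, 6.28 in Itgam, 6.75 in Itgb5, 4.97 in Siglech, 5.90 in Selplg, 6.36 in Laptm5, 6.02 in Olfml3, 1.96 in Cd22, 4.51 in Myo1f, 3.27 in Rasal3, 1.34 in Milr1 and 5.64 in Inpp5d. PMCA IP 4 was the highest in 5, at 5.19 in Cx3cr1, 3.82 in Tmem119, 4.66 in Laptm5, 1.88 in Ly86 and 2.34 in Havcr2. The other 4 were Tyrobp in PMCA input 3 (5.38, above 5.30), Fcrls in control IP 1 (-1.32, above the others), Gpr34 in control IP 2 (-0.86, above the others) and Cx3cr1 in control IP 1 (0.999, below the others). In no gene did all libraries of 1 fraction move opposite to those of the other.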

How the results depend on the processing

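The count of the 36 genes higher in PMCA input was 1 with the authors' scaling, 12 with the animal number set of the titles as a block, 0 with that of the source names, and 0 to 25 when 1 library was left out. Over all genes these counts were 59, 620, 25 and 1 to 935. For the other microglial and signalling genes in input they were 1, 17, 0 and 0 to 30. In IP the count of the latter was 17, against 6 with the set of the source names as a block and 10 to 19 when 1 library was left out. Total-read scaling, no filter, a prior count of 2 and limma voom on the recovered reads left the input counts at 1. No member was lower in PMCA input under any alternative. The cause of the changes was not tested. The mouse as a replicate block, for the paired IP and input, left 33 genes lower in IP of PMCA mice and 34 in control mice and changed no call. No paired analysis of PMCA against control mice was possible because these are different animals. No member reversed a called direction. With 4 mice a group, of which 1 control lay among the PMCA mice, differences of the size seen in input passed the test in 1 member, and members with few reads, such as Cd22 in control IP, are the least precise. Intervals and tests cover these mice only.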
